A study of Mus musculus with 6 samples.

Results

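The nuclear genes for the subunits of oxidative phosphorylation were read, complex by complex, in effector memory CD4+ T cells of Il1rn knockout and wild-type mice. Members were the protein-coding genes whose symbols name a subunit of NADH dehydrogenase (complex I), succinate dehydrogenase (complex II), the cytochrome bc1 complex (complex III), cytochrome c oxidase (complex IV) or ATP synthase (complex V), with cytochrome c itself. There were 86 of them among 34866 genes in the table: 35 of complex I, 4 of complex II, 9 of complex III, 1 for cytochrome c, 20 of complex IV and 17 of complex V. Ndufa4 and its relative Ndufa4l2 were placed in complex IV, to which the protein belongs despite its symbol. Ndufab1 and the ATP synthase inhibitor Atpif1 are not reached by the symbol rule, and 1 further annotated identifier of Atp5o was not analysed here.

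Both groups were helper T cells that had met antigen before, sorted live as effector memory CD4+ cells from mouse spleen. Il1rnKO libraries 1 to 3 came from mice without Il1rn, which encodes the secreted antagonist of the interleukin-1 receptor, and WT libraries 1 to 3 from wild-type mice; strain, age, sex, treatment and the form of the Il1rn allele are not given in the labels. Poly(A)-selected RNA was made into strand-keeping libraries and read from both ends. The labels do not tie the 3 libraries of a group to separate animals, so the spread behind each p-value may be no more than technical.

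Oxidative phosphorylation passes electrons from NADH and succinate through complexes I and II to coenzyme Q, then through complex III, cytochrome c and complex IV to oxygen, and the proton gradient built on the way drives ATP synthase. Complexes I, III, IV and V combine subunits from nuclear genes with a few encoded on mitochondrial DNA (the mt- genes), whereas complex II is wholly nuclear. Memory CD4+ T cells rely on this pathway more than newly activated ones do.

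The printed promoters belong to the 2 members with an unadjusted edgeR p under 0.05, Ndufa8 and Atp5g2, and to the members whose levels tracked the mitochondrial share of a library most steeply upward and most steeply downward, Cox6b1 and Uqcrc1. Each window holds 250 bases before and 50 after the gene's start, on the gene's own strand, from RefSeq on GRCm38.p6. Capitals mark matches to the NRF1 motif (GCGCA, any base, then GCGC) or the ETS motif (CCGGAAG), on either strand.
Ndufa8 (chr2:36049289-36049588, minus strand): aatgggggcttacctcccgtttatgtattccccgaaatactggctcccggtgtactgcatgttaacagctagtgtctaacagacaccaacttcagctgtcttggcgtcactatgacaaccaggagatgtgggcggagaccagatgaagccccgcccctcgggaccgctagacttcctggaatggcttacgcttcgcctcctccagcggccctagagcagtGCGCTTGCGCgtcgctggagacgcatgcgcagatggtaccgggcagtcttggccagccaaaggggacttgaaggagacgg
Atp5g2 (chr15:102670998-102671297, minus strand): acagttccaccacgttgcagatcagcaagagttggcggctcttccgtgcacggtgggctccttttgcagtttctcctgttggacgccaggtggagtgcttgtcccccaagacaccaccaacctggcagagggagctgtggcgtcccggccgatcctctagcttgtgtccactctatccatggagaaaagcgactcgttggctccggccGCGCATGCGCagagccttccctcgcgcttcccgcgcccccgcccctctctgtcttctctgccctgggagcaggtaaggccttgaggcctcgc
Cox6b1 (chr7:30626065-30626364, minus strand): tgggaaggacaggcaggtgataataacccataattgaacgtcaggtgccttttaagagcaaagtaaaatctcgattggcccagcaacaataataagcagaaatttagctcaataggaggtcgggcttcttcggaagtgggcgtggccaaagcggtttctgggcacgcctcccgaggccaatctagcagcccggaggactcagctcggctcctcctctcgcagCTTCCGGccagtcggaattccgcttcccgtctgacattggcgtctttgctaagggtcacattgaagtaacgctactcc
Uqcrc1 (chr9:108936398-108936697, plus strand): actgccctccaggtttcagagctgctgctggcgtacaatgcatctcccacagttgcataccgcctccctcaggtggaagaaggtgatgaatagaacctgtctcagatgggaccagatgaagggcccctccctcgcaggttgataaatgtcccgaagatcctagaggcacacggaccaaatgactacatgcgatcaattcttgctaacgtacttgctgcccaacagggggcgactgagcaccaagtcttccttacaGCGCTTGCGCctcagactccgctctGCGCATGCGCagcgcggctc
Ndufa8 and Atp5g2, whose values lay in opposite directions between the genotypes, both hold 1 NRF1 match. Uqcrc1 holds 2 NRF1 matches, and Cox6b1 holds 1 ETS match, read on the opposite strand. A promoter window was found for 67 of the 86 members. NRF1 letters stood in 17 of these windows (25.4%), against 5.19% of the windows of 27025 genes and 11.4% of those of the 9904 tested genes with a window. The ETS letters stood in 16 (23.9%), against 9.93% and 20.1%. The letters AAGATGGC, bound by YY1, stood in 9 (13.4%), against 3.19% and 5.26%, and 7 of those 9 were complex I genes. Complex I supplied 31 of the 67 windows searched. Any of the 3 motifs occurred in 36 member windows (53.7%), against 16.4% of all and 32.3% of tested genes. Both strands were searched for each, and the ETS and YY1 motifs can share the letters AAG. A match is a run of letters, not a shown binding site.

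Library totals lay between 14158897 and 17205393 estimated counts in Il1rnKO and between 14102183 and 17677217 in WT. Il1rn itself had 1, 3 and 1 counts in the Il1rnKO libraries and 6, 10 and 0 in the WT libraries, too few to check the genotype by level. The T cell markers (all 7 tested) summed to between 4488 and 4705 CPM in Il1rnKO and between 3949 and 4543 CPM in WT. CPM is the count scaled to the library total. Marker sums cover every listed gene, tested or not, and use the total without TMM factors. In these sums 1 CPM stood for about 14.1 to 17.7 counts. The CPM values of single genes use the total with TMM factors. The naive list (all 3 tested) summed to between 240 and 253 CPM in Il1rnKO and between 248 and 411 CPM in WT. Memory and activation markers (all 4 tested) summed to between 2651 and 3300 CPM in Il1rnKO and between 2753 and 3045 CPM in WT. The neutrophil list (8 of 10 tested) summed to 41.9, 40.3 and 108 CPM in Il1rnKO 1, 2 and 3, against 7.35, 5.69 and 3.90 CPM in WT 1, 2 and 3. Macrophage and monocyte markers (4 of 8 tested) summed to between 17.6 and 24.8 CPM in Il1rnKO and between 6.81 and 13.3 CPM in WT. Their part in the genotype comparison was not tested. EdgeR's quasi-likelihood test called 7 of 13374 genes at an adjusted p under 0.05, 4 higher and 3 lower in Il1rnKO.

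The share of counts in mt- genes differed more between the Il1rnKO libraries than between the genotype means. It was 3.69%, 3.44% and 8.34% in Il1rnKO 1, 2 and 3, against 5.68%, 7.32% and 8.92% in WT 1, 2 and 3. Il1rnKO 1 and 2 held the lowest shares, and Il1rnKO 3 lay above WT 1 and 2. The mean was 5.15 ± 2.76% in Il1rnKO and 7.30 ± 1.62% in WT (SD, n = 3 each; exact two-sided permutation p = 0.3, where the smallest possible is 0.1). The difference of -2.15 percentage points was -3.74 without Il1rnKO 3 and -1.29 without Il1rnKO 2. All 13 mt-encoded subunit genes had a log2 fold change below 0, with a median of -0.57, and none passed the test. That median was -1.20 without Il1rnKO 3 and -0.34 without Il1rnKO 2. It was -0.087 with the mt- share as a covariate. That share is made up of these same genes, so a value near 0 there was built in and is not a result. The lowest value was that of mt-Nd3, a complex I subunit, at 159, 98.9 and 291 CPM in Il1rnKO 1, 2 and 3, against 199.5, 326 and 353 CPM in WT 1, 2 and 3, a log2 fold change of -0.68 (SE 0.35). The membrane subunit gene mt-Atp8 of ATP synthase had 296, 227 and 671 CPM in the Il1rnKO libraries and 429, 644 and 769 CPM in the WT libraries, a log2 fold change of -0.63 (SE 0.37).

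No nuclear subunit gene passed the test between genotypes. Of the 86 members, 78 had enough counts to be tested, and edgeR called 0 of them, against 0.0523% of all genes tested; the smallest adjusted p among them was 0.988. DESeq2 called 0 as well. At an unadjusted edgeR p under 0.05 there were 2 members, against 4.08% of all genes. That count moved to 33 of 78 without Il1rnKO 3, where 1873 of 14026 genes tested were under 0.05. It was 17 with the mt- share as a covariate (845 of 13374 genes) and 8 with the replicate number as a block (1228 of 13374 genes). Without WT 3 it was 0 (462 of 14050 genes). Log2 fold changes were below 0 in 59 of the 78, against 47.4% of all genes, with a median of -0.10 over the members and 0.02 over all genes. By complex the median was -0.06 in complex I, -0.06 in complex II, -0.18 in complex III, -0.10 in complex IV and -0.15 in complex V. With each library left out in turn, it lay between -0.37 and 0.11 in complex I, -0.22 and 0.02 in complex II, -0.65 and -0.06 in complex III, -0.46 and 0.05 in complex IV, and -0.49 and 0.03 in complex V, lowest in each without Il1rnKO 3; complex III alone kept its sign. The ribosomal protein genes, another set of short abundant transcripts, had a median of -0.29 with 49 of 49 below 0. In bulk RNA, fewer cells of a type and less RNA per cell cannot be told apart.

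**Figure D1:**
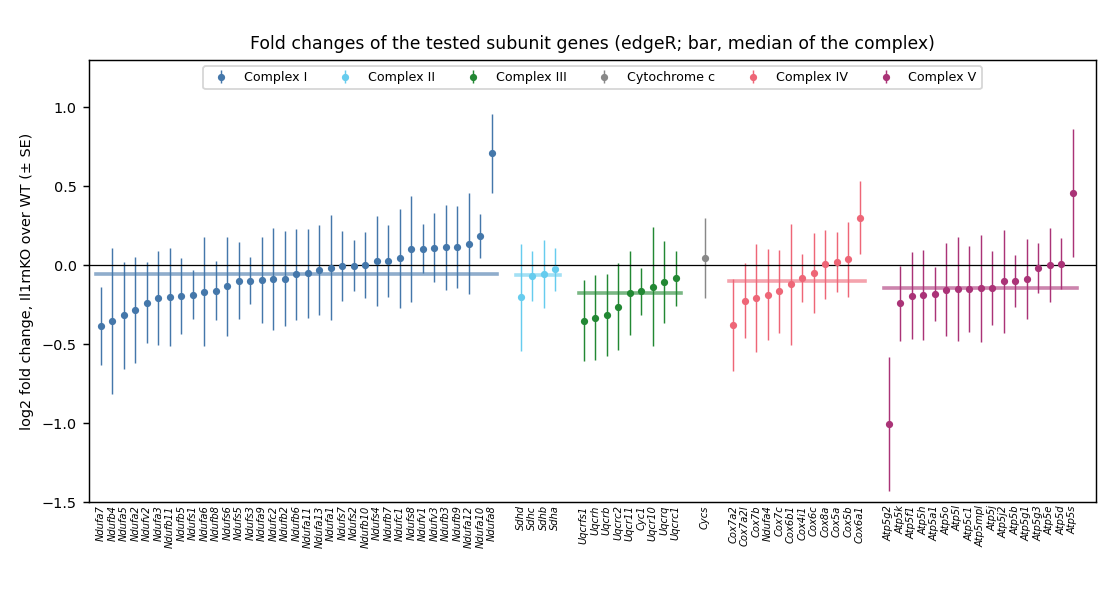
Log2 fold change of Il1rnKO over WT for the 78 tested subunit genes (vertical axis), grouped by complex along the horizontal axis and ordered by value. Points are edgeR estimates, error bars are 1 SE and thick bars are the median of a complex; 59 points lie below 0, and Ndufa8 and Atp5g2 stand farthest out.

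That median moved with single libraries. Without Il1rnKO 3 the member median was -0.39, with 72 of 78 below 0; without WT 3 it was 0.03, with 49 of 78 above 0. With the mt- share of each library as a covariate it was 0.21, with 68 of 78 above 0, and 49 members changed sign. By complex the median was then 0.22 in complex I, 0.14 in complex II, 0.06 in complex III, 0.22 in complex IV and 0.20 in complex V. No member passed the adjusted threshold in any of these fits.

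What the members had in common was their order across libraries. In 74 of the 78 the highest value stood in Il1rnKO 3 or WT 3, the libraries with the largest mt- share of their genotype, against 36.5% of all genes tested. In 62 the lowest stood in Il1rnKO 1 or 2, against 34.2% of all genes. Il1rnKO 3 lay above both other Il1rnKO libraries in 72 members (36.8% of all genes), and WT 3 above both other WT libraries in 68 (36.7% of all genes). The median deviation of a member from its own mean over the 6 libraries was -0.29, -0.36 and 0.47 on the log2 scale in Il1rnKO 1, 2 and 3, against -0.14, 0.02 and 0.40 in WT 1, 2 and 3.

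**Figure D2:**
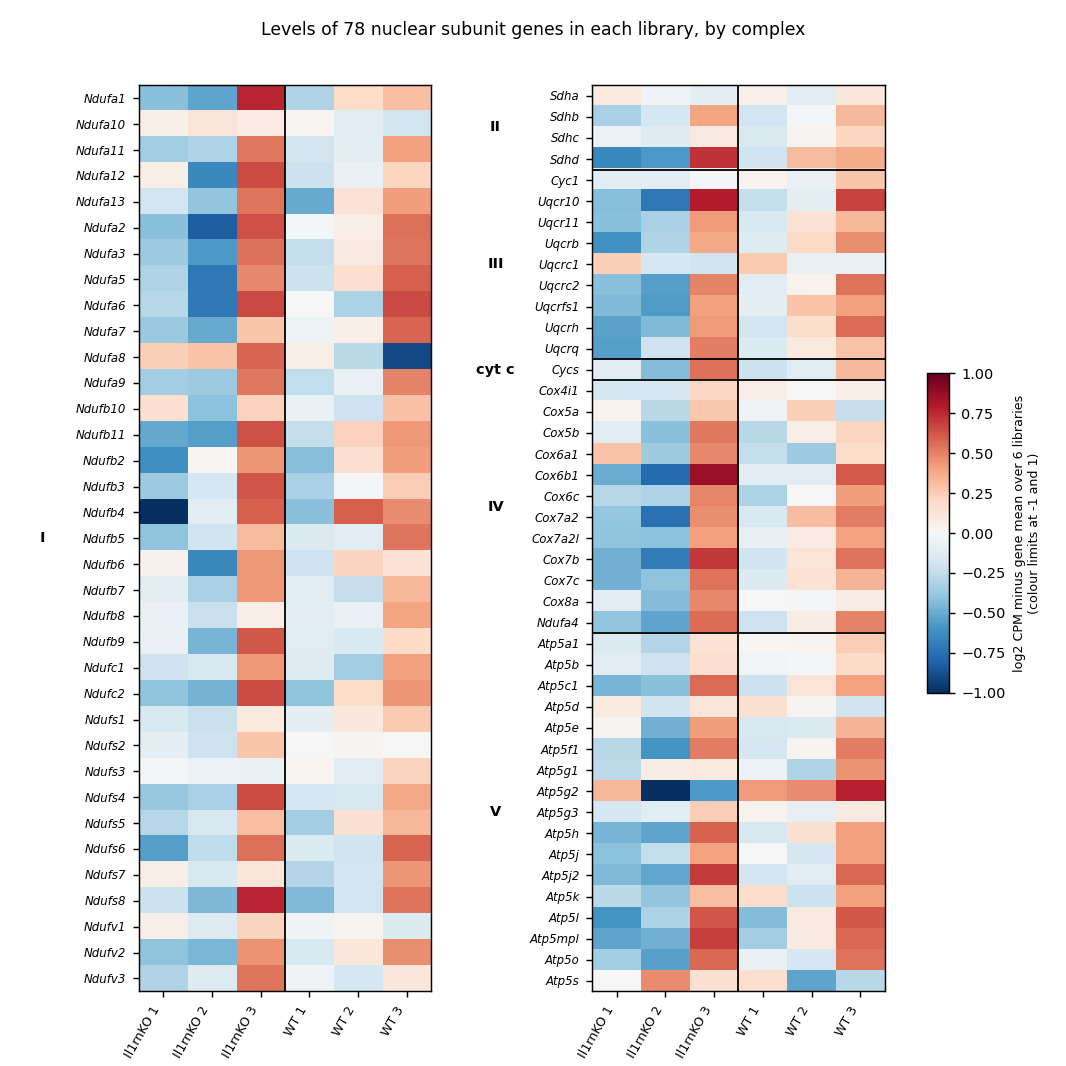
Log2 CPM of each of the 78 tested subunit genes minus its mean over the 6 libraries, in colour, with genes in rows by complex, Il1rnKO libraries left and WT libraries right of the vertical line. Most genes are above their mean in Il1rnKO 3 and WT 3 (median 0.47 and 0.40) and below it in Il1rnKO 1 and 2 (median -0.29 and -0.36); Ndufa8, Atp5g2 and Uqcrc1 break the pattern.

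To take the mt- genes out of the denominator, member counts were summed and scaled to CPM of the counts outside mt- genes. All members together came to 4809, 4621 and 6837 CPM in Il1rnKO 1, 2 and 3, against 5223, 5347 and 6466 in WT 1, 2 and 3. Complex I came to 1205, 1165 and 1753 in Il1rnKO and 1248, 1299 and 1602 in WT. The complex II sum differed least between libraries, at 361, 361 and 404 in Il1rnKO and 367, 358 and 405 in WT. Its members did not all do so: the highest library lay 1.17-fold above the lowest in Sdha, its most abundant member, and 2.61-fold in Sdhd.

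Complex III summed to 534, 522 and 782 in Il1rnKO and 630, 658 and 805 in WT, in exactly the order of the mt- share. Complex IV summed to 880, 825 and 1374 in Il1rnKO and 975, 1033 and 1221 in WT, and complex V to 1788, 1713 and 2463 in Il1rnKO and 1966, 1960 and 2382 in WT. In each of these the sum of Il1rnKO 3 stood near WT 3, while Il1rnKO 1 and 2 were the lowest pair. Cytochrome c came to 41.1, 34.01 and 60.9 CPM in Il1rnKO and 37.96, 38.3 and 51.1 in WT, where that order did not hold for Il1rnKO 1.

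Across the 6 libraries, Pearson's r of the sum with the mt- share was 0.857 in complex I, 0.775 in complex II, 0.976 in complex III, 0.734 for cytochrome c, 0.907 in complex IV and 0.917 in complex V, with Spearman's rho of 0.943, 0.600, 1, 0.771, 0.943 and 0.886 in the same order. These 6 relations are descriptions, with no p, of values in which both measures come from the same library. Without Il1rnKO 1 and 2, which lay farthest from the median mt- share, r over the remaining 4 libraries was between 0.753 for cytochrome c and 0.934 in complex III. With each genotype's mean taken off, r was between 0.878 in complex II and 0.982 in complex IV.

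**Figure D3:**
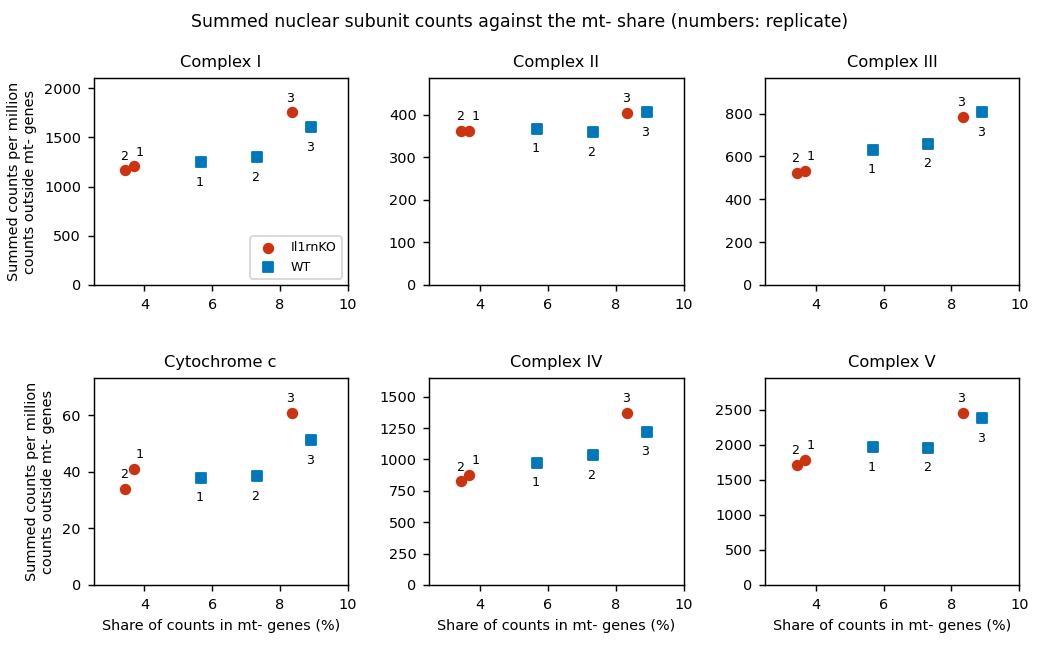
Summed counts of each complex as CPM of the counts outside mt- genes (vertical axis, from 0) against the share of counts in mt- genes (horizontal axis, percent), with Il1rnKO libraries as red circles and WT libraries as blue squares, numbered by replicate. Il1rnKO 3 sits beside WT 3 at the upper right of each panel, at shares of 8.34% and 8.92%, and the complex II sum varies least, between 358 and 405.

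Other measures of the libraries moved along with the mt- share. Ribosomal protein genes took 2.33%, 2.16% and 4.02% of counts in Il1rnKO 1, 2 and 3, against 2.81%, 3.12% and 3.91% in WT 1, 2 and 3. The number of genes with a count was 16840, 17057 and 16015 in Il1rnKO and 16474, 16076 and 15665 in WT. Their part in the members' values was not tested. The ratio of mt- counts to member counts differed between libraries too, at 7.96, 7.71 and 13.3 in Il1rnKO 1, 2 and 3, against 11.5, 14.8 and 15.1 in WT 1, 2 and 3.

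For each member the slope of log2 CPM on the mt- share was taken within genotypes, in log2 units per percentage point. It was above 0 in 73 of 78 members, against 46.3% of all genes tested, with a member median of 0.168. The rise was not particular to the members: ribosomal protein genes had slopes above 0 in 49 of 49, with a larger median of 0.224. Leaving out each library in turn gave 71 to 74 members above 0 and a member median between 0.165 and 0.172. Among the members, slopes reached up to 0.291. The steepest member was Cox6b1, a subunit at the interface of the complex IV dimer, at 0.291, with 47.7, 39.5 and 124 CPM in Il1rnKO 1, 2 and 3, against 62.8, 62.99 and 104 CPM in WT 1, 2 and 3. Both replicate 3 libraries stood above all others, and Il1rnKO 2 was the lowest. Uqcr10, a small membrane subunit of complex III, followed at 0.284.

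Slopes below 0 belonged to 5 members: Uqcrc1 at -0.0602, Atp5s at -0.0520, Ndufa8 at -0.0264, Ndufa10 at -0.0187 and Sdha at -0.0128. Uqcrc1, a core subunit of complex III facing the matrix, had 105, 79.2 and 77.4 CPM in Il1rnKO 1, 2 and 3, against 107, 84.8 and 85.2 CPM in WT 1, 2 and 3. Replicate 1 was its highest library in both genotypes. The other large core subunit, Uqcrc2, had a slope of 0.204, so members of 1 complex did not move as a block.

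Over all genes the slope was lower for longer transcripts, and among the members it showed no steady order below 1500 nucleotides. The members' median transcript length was 752 nucleotides, against 2641 over all genes, and Spearman's rho of slope on length was -0.27 over the 78 members and -0.33 over 12531 protein-coding genes. Within lengths up to 600 nucleotides all 27 members had a slope above 0, with a median of 0.180, and the 240 genes of that length had a median of 0.141 with 79.2% above 0. The member median was 0.140 above 600 and up to 750 nucleotides, 0.207 up to 1000 and 0.184 up to 1500, against 0.112, 0.0537 and 0.0415 over all genes of these classes. Above 1500 nucleotides the 16 members had a median of 0.0697, with 13 above 0, and the 10041 genes a median of -0.0206, with 40.7% above 0. Genes share libraries and are not independent replicates, so these values carry no p.

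**Figure D4:**
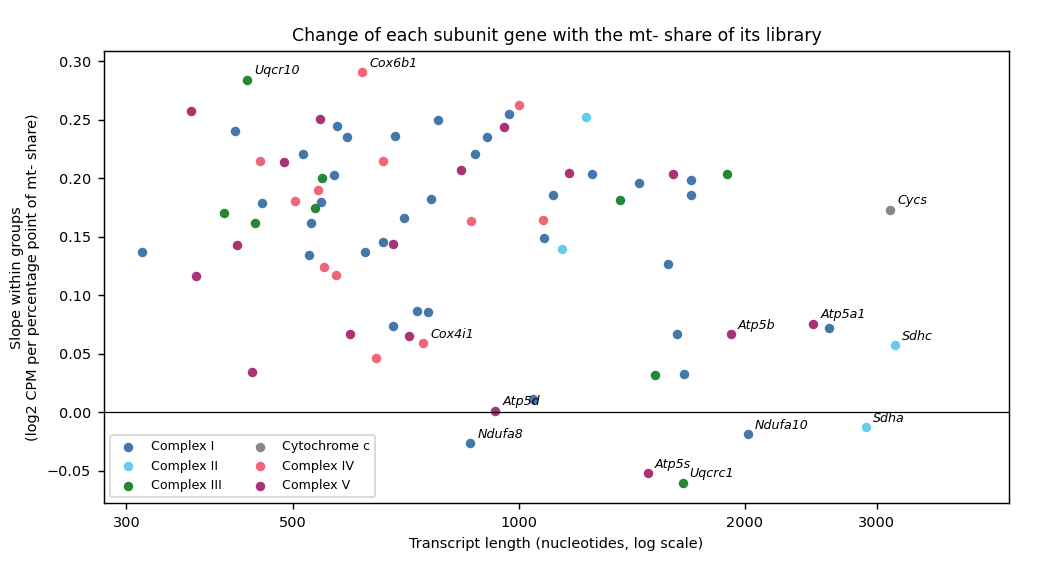
Slope of log2 CPM on the mt- share within genotypes (vertical axis, log2 units per percentage point) against transcript length (horizontal axis, nucleotides, log scale), 1 point per tested subunit gene, coloured by complex. Slopes lie between -0.0602 and 0.291, and 73 of 78 are above 0. Transcripts over 1500 nucleotides lie on both sides of the member median of 0.168, with Sdha at -0.0128 and Atp5b at 0.0668 but Uqcrc2 at 0.204 and Cycs at 0.173.

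Roles within a complex differed in slope, in a grouping drawn up with the values known and left untested. The 7 core subunits of complex I, which pass electrons from NADH to coenzyme Q, had a median slope of 0.0723, against 0.181 in its 28 accessory subunits. In complex V the catalytic F1 head had a median of 0.0757 and the c ring 0.0650, whereas the peripheral stalk had 0.205 and the small membrane subunits e, f, g and 6.8PL had 0.247. The roles differed in median transcript length too, at 1623 nucleotides in the complex I core and 693.5 in its accessory subunits. In complex V it was 1166 in the F1 head, 596 in the c ring, 759 in the stalk and 457.5 in the small membrane subunits. The part of length in these slopes was not tested.

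Levels between genes were compared as mean CPM per kilobase of transcript. Among tested members, complex IV had the highest median, 111 CPM per kilobase, then complex V with 98.3 and complex III with 62.2. Complex II had 52.1, complex I 37.4 and cytochrome c 13.3. The first rank depends on the count filter, which left 12 of 20 members in complex IV. Counting the 8 others as lowest would place its median between Cox5a at 61.8 and Cox5b at 67.5, below complex V. The median member stood at percentile 90.2 of tested protein-coding genes, and 40 of the 78 lay above percentile 90, where 10.0% of all genes lie. Uqcrh, the hinge subunit of complex III, was the highest at 261 CPM per kilobase, ahead of Atp5h of the ATP synthase peripheral stalk at 257 and Cox7a2l, which links complexes III and IV into supercomplexes, at 235. The lowest were Atp5s, a coupling factor, at 2.74 and the complex I subunit Ndufb4 at 8.40. Ndufb4 had decimals in all 6 libraries, so that its counts are in part estimates. These ranks depend on the length used. With the longest transcript, Uqcrh stayed highest and Atp5s lowest, but Atp5h came to 183, below Cox7a2l at 235, Atp5b at 226 and Cox4i1 at 189. Atp5g1 at 2.89, Ndufb2 at 4.36 and Ndufc1 at 7.28 then lay below Ndufb4.

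**Figure D5:**
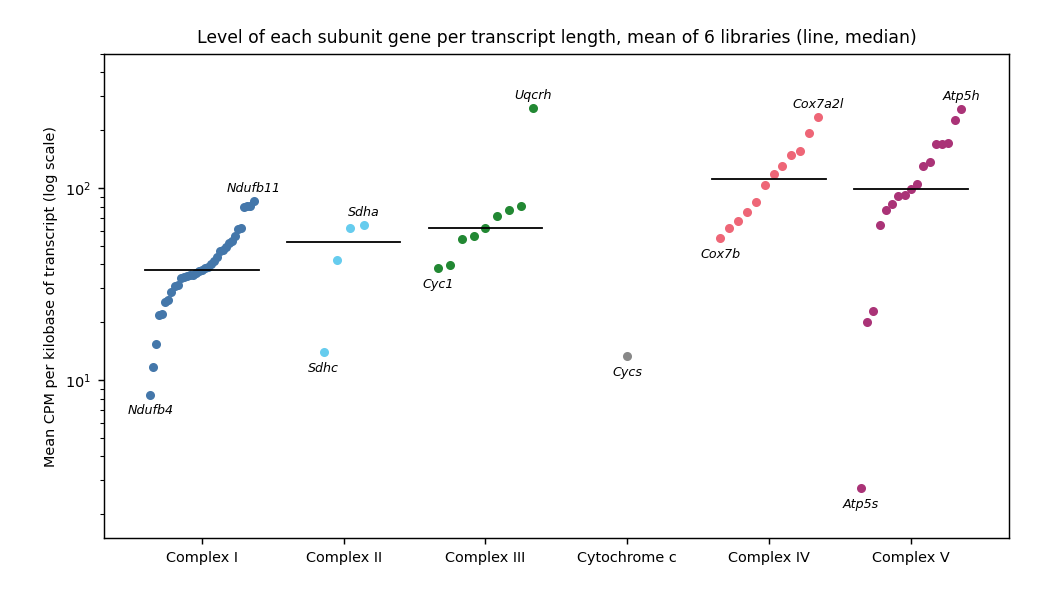
Mean CPM per kilobase of transcript over the 6 libraries (vertical axis, log scale) for each tested subunit gene, by complex along the horizontal axis, with a line at the median of each complex. Among tested genes, complex IV (12 of 20 members) and complex V have the highest medians, 111 and 98.3, and Atp5s at 2.74 is the lowest.

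In complex I, 35 of 35 members were tested and 0 were called. Ndufa8, an accessory subunit of the intermembrane space side, had 25.2, 26.1 and 32.2 CPM in Il1rnKO 1, 2 and 3, against 22.2, 17.5 and 11.1 CPM in WT 1, 2 and 3. All Il1rnKO values lay above all WT values, and WT 3 was the lowest by a wide margin. Its log2 fold change was 0.71 (SE 0.25), with an unadjusted edgeR p of 0.0168 and an adjusted p of 0.988. The gene lies at chr2:36036326-36049406 on GRCm38, overlaps no other annotated gene and had whole counts in every library. Ndufa10, an accessory subunit of the membrane arm, had 53.9, 56.3 and 54.7 CPM in Il1rnKO 1, 2 and 3, against 52.1, 47.95 and 44.97 CPM in WT 1, 2 and 3, again without overlap, and a log2 fold change of 0.19 (SE 0.14). Among all genes tested, 5.78% had every Il1rnKO value above every WT value; among the members these 2 did.

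Ndufa7, an accessory subunit, had 21.9, 20.1 and 34.8 CPM in the Il1rnKO libraries and 27.6, 29.9 and 42.96 CPM in the WT libraries, a log2 fold change of -0.38 (SE 0.25). Il1rnKO 3 lay between the WT libraries. Ndufs1, the large iron-sulfur subunit of the NADH-oxidising arm, had 81.6, 77.5 and 96.8 CPM in the Il1rnKO libraries and 84.9, 97.6 and 109 CPM in the WT libraries, with overlapping groups and a log2 fold change of -0.19 (SE 0.16). Ndufv1, which binds NADH and the flavin, had a log2 fold change of 0.11 (SE 0.15), with means of 53.9 ± 6.57 CPM in Il1rnKO and 50.1 ± 2.93 CPM in WT (SD, n = 3 each). Per kilobase, Ndufb11 at 85.8 and Ndufa2 at 80.4 CPM led the complex, with -0.20 (SE 0.31) for Ndufb11 and -0.28 (SE 0.33) for Ndufa2 as the log2 fold change.

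In complex II, 4 of 4 members were tested and 0 were called. Sdha, the flavoprotein that oxidises succinate, had 198, 182 and 175 CPM in Il1rnKO 1, 2 and 3, against 193, 172 and 200.5 CPM in WT 1, 2 and 3. Its values overlapped and varied little, with a log2 fold change of -0.03 (SE 0.14). Sdhd, a membrane anchor, had 31.02, 32.6 and 80.8 CPM in Il1rnKO 1, 2 and 3, against 42.4, 60.6 and 63.2 CPM in WT 1, 2 and 3. Il1rnKO 3 was its highest library and Il1rnKO 1 and 2 its lowest, so the genotype means, 48.1 ± 28.3 CPM in Il1rnKO and 55.4 ± 11.4 CPM in WT (SD, n = 3 each), differed by less than the spread within Il1rnKO. The iron-sulfur subunit Sdhb had a log2 fold change of -0.06 (SE 0.21) and a slope of 0.140, and the other anchor, Sdhc, a log2 fold change of -0.07 (SE 0.16) and a slope of 0.0574.

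In complex III, 9 of 9 members were tested, 0 were called and all had log2 fold changes below 0. Uqcrfs1, the Rieske iron-sulfur protein, had 54.7, 49.9 and 98.7 CPM in Il1rnKO 1, 2 and 3, against 69.9, 90.6 and 98.8 CPM in WT 1, 2 and 3, a log2 fold change of -0.35 (SE 0.25). Uqcrh had 94.5, 101 and 184 CPM in Il1rnKO 1, 2 and 3, against 120.1, 155 and 202 CPM in WT 1, 2 and 3, a log2 fold change of -0.33 (SE 0.27). Without Il1rnKO 3 these were -0.73 and -0.71. In both genes Il1rnKO 1 and 2 lay below every WT library, and Il1rnKO 3 stood at or above WT 2. Uqcrb, a small subunit beside cytochrome b, had a log2 fold change of -0.31 (SE 0.26), the small subunit Uqcrq of -0.10 (SE 0.26), and Cyc1, the cytochrome c1 that hands electrons to cytochrome c, of -0.17 (SE 0.15).

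Cycs, cytochrome c, the mobile electron carrier that also triggers the apoptosome, had 37.3, 29.8 and 59.6 CPM in Il1rnKO 1, 2 and 3, against 34.8, 37.1 and 50.8 CPM in WT 1, 2 and 3. The groups overlapped, with a log2 fold change of 0.05 (SE 0.25).

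In complex IV, 12 of 20 members were tested and 0 were called. Cox7a2, a small nuclear subunit, had 35.8, 27.9 and 65.1 CPM in Il1rnKO 1, 2 and 3, against 42.1, 58.3 and 67.03 CPM in WT 1, 2 and 3, a log2 fold change of -0.38 (SE 0.29). It was -0.81 without Il1rnKO 3, and its counts had decimals in all 6 libraries. Cox6a1, a regulatory subunit, had 57.5, 36.7 and 66.01 CPM in Il1rnKO 1, 2 and 3, against 39.9, 36.5 and 53.6 CPM in WT 1, 2 and 3, a log2 fold change of 0.30 (SE 0.23). Il1rnKO 2 lay with the lowest WT libraries and Il1rnKO 1 and 3 above all of them. Cox4i1, the largest nuclear subunit, had 128, 128 and 166 CPM in the Il1rnKO libraries and 150.2, 145 and 151 CPM in the WT libraries, a log2 fold change of -0.08 (SE 0.15), and its slope on the mt- share was 0.0592. Cox5a, a subunit of the matrix side, had a log2 fold change of 0.02 (SE 0.19), Cox7a2l of -0.22 (SE 0.24) and Ndufa4 of -0.19 (SE 0.29).

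The 8 members below the count filter were all in complex IV: forms known from muscle, testis or lung, and Ndufa4l2, a relative of Ndufa4 known to be induced by hypoxia. Cox6a2, Cox7b2, Cox8c and Ndufa4l2 had 0 counts in every library. Against the counts of the common form in the same libraries, 3 counts allow a share of up to 0.0640% for Cox6a2, 0.0574% for Cox7b2, 0.0541% for Cox8c and 0.0471% for Ndufa4l2, covering counting error only. Cox7a1 had 17 counts in Il1rnKO and 4 in WT beside 4709 of Cox7a2, Cox8b had 8 and 5 beside 5550 of Cox8a, Cox4i2 had 9 and 0 beside 14009 of Cox4i1, and Cox6b2 had 2 and 6 beside 6972 of Cox6b1. These counts came from few libraries. All 9 of Cox4i2 lay in Il1rnKO 3, and 13 of the 17 of Cox7a1 in Il1rnKO 2. Cox8b had its counts in Il1rnKO 1 and WT 1 only, and Cox6b2 in Il1rnKO 3 and WT 3 only. The common forms therefore held nearly all counts of these subunits in both genotypes.

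In complex V, 17 of 17 members were tested and 0 were called. Atp5g2, 1 of 3 genes for the identical mature c subunit that forms the rotor ring, had 10.01, 2.56 and 5.08 CPM in Il1rnKO 1, 2 and 3, against 10.7, 11.1 and 13.8 CPM in WT 1, 2 and 3. Every Il1rnKO value lay below every WT value, which held for 3.63% of all genes tested and for no other member. Il1rnKO 1 came close to WT 1, and Il1rnKO 2 was lowest. Its log2 fold change was -1.004 (SE 0.43), with an unadjusted edgeR p of 0.0393 and an adjusted p of 0.988. It was -1.65 without Il1rnKO 1 and -0.68 without Il1rnKO 2, where the unadjusted edgeR p was 0.0784. The gene lies at chr15:102662864-102672352 on GRCm38. Its counts had decimals in all 6 libraries, as did those of Atp5g1, whereas those of Atp5g3 were whole. Its level is therefore in part an estimate, and the genes with which its reads were divided are not given. The microRNA gene Mir688 overlaps it on the same strand.

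Of the c subunit transcripts, as counts per kilobase over the 3 genes, Atp5g2 held 14.02%, 3.77% and 5.85% in Il1rnKO 1, 2 and 3, against 13.1%, 14.6% and 15.1% in WT 1, 2 and 3. Il1rnKO 1 lay among the WT libraries, and the other two Il1rnKO libraries lay far below. The means were 7.88 ± 5.42% in Il1rnKO and 14.3 ± 1.04% in WT (SD, n = 3 each; exact two-sided permutation p = 0.2). Atp5g3 held 79.1 ± 4.02% in Il1rnKO and 73.3 ± 2.97% in WT (exact permutation p = 0.3), and Atp5g1 13.1 ± 2.07% in Il1rnKO and 12.4 ± 2.31% in WT (exact permutation p = 0.6). With 3 libraries against 3 none of these could go below 0.1. The shares depend on the length taken for Atp5g1, which is 596 nucleotides in its shortest and 4715 in its longest best-ranked transcript. With the longest, an alternative chosen after seeing the data, Atp5g1 held 1.95% in Il1rnKO and 1.91% in WT (exact permutation p = 0.9), Atp5g2 5.65% in Il1rnKO and 10.5% in WT (exact permutation p = 0.2), and Atp5g3 92.4% in Il1rnKO and 87.6% in WT (exact permutation p = 0.2).

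Atp5a1 and Atp5b, the alpha and beta subunits of the catalytic head, varied little, their highest library lying 1.45-fold and 1.31-fold above their lowest. Atp5a1 had 384, 345 and 468 CPM in Il1rnKO 1, 2 and 3, against 425, 432 and 501 CPM in WT 1, 2 and 3, a log2 fold change of -0.18 (SE 0.17). Atp5b had 399.8, 374 and 482 CPM in Il1rnKO 1, 2 and 3, against 424, 428 and 491 CPM in WT 1, 2 and 3, a log2 fold change of -0.10 (SE 0.17). For both, WT 3 was the highest library and Il1rnKO 2 the lowest, and the groups overlapped through Il1rnKO 3. Atp5s had 3.98, 5.70 and 4.46 CPM in the Il1rnKO libraries and 4.50, 2.60 and 3.17 CPM in the WT libraries, a log2 fold change of 0.46 (SE 0.41), Atp5k, the subunit e of the membrane part, -0.24 (SE 0.24), and Atp5h -0.19 (SE 0.28). The c subunit genes Atp5g3 and Atp5g1 came to -0.02 (SE 0.16) and -0.09 (SE 0.25) on the log2 scale. Atpif1, the inhibitor that binds the head when the gradient fails, lies outside the members and had 13.3, 6.73 and 17.3 CPM in the Il1rnKO libraries and 10.4, 12.00 and 17.96 CPM in the WT libraries, a log2 fold change of -0.11 (SE 0.35).

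In 4 further lists on mitochondrial function edgeR called 0 genes as well. Of 47 tested assembly factors, 27 had log2 fold changes below 0 and the median was -0.07; Cox17, which carries copper to complex IV, had -0.42 (SE 0.26), and Ndufaf4, a complex I assembly factor, -0.40 (SE 0.24). Of 26 tested genes for mitochondrial gene expression, 17 were below 0 with a median of -0.04; Tfam, which packs and transcribes mitochondrial DNA, had -0.33 (SE 0.18), and Polg2, an accessory subunit of its polymerase, 0.41 (SE 0.23). Of 24 tested genes of the tricarboxylic acid cycle, 15 were below 0 with a median of -0.06.

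Idh2, the NADP-dependent isocitrate dehydrogenase of the mitochondrion, had 22.4, 16.8 and 21.9 CPM in Il1rnKO 1, 2 and 3, against 24.8, 26.5 and 32.1 CPM in WT 1, 2 and 3. No Il1rnKO library reached the lowest WT library, which held for 3.63% of all genes tested. The log2 fold change was -0.45 (SE 0.19). Its unadjusted edgeR p of 0.0406 was the smallest among the 24 genes of its list, and the adjusted p was 0.988. Idh3a, a subunit of the NAD-dependent enzyme, had 0.25 (SE 0.15). Of 27 tested carriers and coenzyme Q genes, 15 were below 0 with a median of -0.0045; Pdss1, which builds the coenzyme Q tail, had 0.45 (SE 0.28), and Slc25a13, an aspartate and glutamate carrier, 0.57 (SE 0.44).

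Counts of 46 of the 78 tested members were whole in all 6 libraries, within 1e-06, and 32 had decimals in some library. An annotated gene overlapped 35 of them, 27 on the opposite strand. Whether the counting program used strand is not stated, so these members may share reads with their neighbours.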

How the data were processed

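RNA was measured in 6 libraries, 3 of Il1rnKO and 3 of WT. The authors deposited 1 estimated count per gene and library, unscaled and in part with decimals. The submitters' processing notes name the build GRCm38. Aligner, counter and strand setting: not given in the sources used here. All 6 count columns were assigned by their names. The WT columns bear the samples' titles, and columns KO1 to KO3 were matched by number to the titles Il1rnKO1 to Il1rnKO3.

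Counts were rounded to whole numbers. Symbols, types and lengths came from GENCODE M21, which is on this build, for 34652 of the table's identifiers, versions ignored; 214 found no match. In all, 11 genes of other types with matching symbols were left out. A gene's length was that of its shortest transcript of the best APPRIS level. The genotypes were tested in edgeR 4.0.16 (R 4.3.3) with TMM scaling, filterByExpr by group (minimum count 10, minimum total 15) and glmQLFTest (two-sided), p adjusted by Benjamini-Hochberg over 13374 genes and a threshold of 0.05. Log2 fold changes are Il1rnKO over WT. The fit's common coefficient of biological variation came to 0.286. Slopes used log2(CPM + 0.5) with genotype means removed. Summed counts and motif counts came from Python 3.11.15, pandas 2.3.3, numpy 2.4.6 and scipy 1.17.1. Correlations of summed members carry no p, since members and lists were chosen with earlier results of these data known.

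Genes named were Il1rn, the 3 members of each complex with the smallest edgeR p and the 2 with the highest level per kilobase, a fixed set of subunits and isoforms whatever their result, and the 2 tested genes with the smallest edgeR p in each further list; the members named for slope, level or overlap were chosen after their values were seen. On simulated counts for this comparison, over 12914 genes, edgeR recovered 53% of 2-fold and 80% of 4-fold changes with 14 false calls, and DESeq2 1.42.0 recovered 62% and 87% with 34. Alternatives were other scaling, no filter, DESeq2, a replicate block, mt- genes taken out, the mt- share as a covariate, Ndufa4 counted under complex I, and each library left out. Alternatives chosen after seeing the data were the longest transcript in place of the shortest, slopes with each library left out, and the median over the mt-encoded genes.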

Additional observations from a re-analysis of the deposited data

How the results depend on the processing

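The 0 calls among the members held under every alternative, where the smallest adjusted p of any was 0.143, without Il1rnKO replicate 3. Over all genes 7 were called; no filter gave 58, DESeq2 22, the mt- share as a covariate 14, and leaving out each library 3 to 10. The replicate block gave 11 calls and a member median of -0.13. Libraries of the same number share only a number in the labels (correlations of their deviations 0.108, 0.0530 and 0.116). Each library correlated best with the one of its own number, but these values are small. Il1rnKO 2 had 0.0398 with WT 1, so they do not show a pairing. No blocked fit called a member.

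The complex III median lay between -0.65 and -0.063 with each library left out, and was 0.062 with the mt- share as a covariate. Pearson's r with the mt- share lay between 0.817 and 0.931 in complex I, 0.653 and 0.969 in complex II, 0.868 and 0.975 in complex IV, and 0.882 and 0.982 in complex V. The Atp5g1 share difference lay between -0.537 and 1.94 percentage points. The mt- share as a covariate turned 17 named log2 fold changes positive: Atp5h 0.20, Ndufa4 0.22, Sdhc 0.058, Ndufb11 0.22, Cox7a2l 0.090, Cox4i1 0.036, Sdhb 0.23, Uqcrh 0.062, Atp5b 0.040, Atp5g1 0.074, Sdhd 0.21, Atpif1 0.28, Cox7a2 0.023, Ndufa2 0.13, Uqcrb 0.027, Atp5g3 0.11 and Uqcrq 0.21. With mt- genes taken out Cox5a was -0.0060. Leaving out each library moved Cox5a between -0.12 and 0.16, Ndufa4 between -0.62 and 0.025, Sdhc between -0.19 and 0.024, Sdhb between -0.31 and 0.10, Atp5g1 between -0.25 and 0.16, Sdhd between -0.80 and 0.014, Atpif1 between -0.42 and 0.17, Cycs between -0.29 and 0.23, Sdha between -0.10 and 0.017, Atp5g3 between -0.17 and 0.036 and Uqcrq between -0.47 and 0.088. The cause was not tested.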
